A study of Mus musculus with 7 samples.

Results

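Barx1, Pitx1, Foxf1, Foxf2, Prrx1, Prrx2, Dlx2, Dlx5 and Dlx6 encode homeobox and forkhead transcription factors of the mesenchyme that surrounds the embryonic pharynx and foregut. The 9 genes were taken by name from a table of 14732 genes measured in the mouse outflow tract (OFT), the vessel that leaves the embryonic heart, and they were chosen by a measured value, since *Barx1*, *Pitx1* and *Foxf1* were higher in every *Gata6STOP/+* pool than in every control pool. Of the 9, 7 had a row, and *Foxf2* and *Dlx6* were not analysed here. Because the comparison of genotypes chose the members, their differences between genotypes are given as descriptions, without a test.

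RNA was sequenced from pools of 4 pairs of OFTs at embryonic day (E) 11.5, with 3 wild-type control pools (replicates 3, 4 and 5) and 4 *Gata6STOP/+* pools (replicates 1, 3, 4 and 5) by the labels, whereas the study's methods give 3 pools per genotype. The *Gata6STOP/+* embryos carried, in 1 copy of *Gata6* in all of their cells, a premature stop codon made by CRISPR-Cas9. The line came from a single founder that was backcrossed to C57BL/6. The sources used here do not say whether pools of a genotype came from separate litters, so the spread between them may in part be technical.

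Homeobox factors bind DNA through a homeodomain and forkhead factors through a winged helix. In the pharyngeal arches, nested expression of the Dlx genes, with Dlx5 and Dlx6 under endothelin signalling, gives neural crest-derived mesenchyme its position along the arch. Barx1 is known for its roles in stomach and tooth mesenchyme, Pitx1 in the hindlimb and the lower jaw, Foxf1 and Foxf2 as Hedgehog-responsive factors of foregut mesenchyme, and Prrx1 and Prrx2 in the mesenchyme of the limbs and face.

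Values are in CPM, the reads on a gene per 1e+06 reads of the pool, made comparable between pools by TMM, a scaling that assumes most genes do not differ. Between 17783655 and 29035529 reads lay behind each control pool and between 24736761 and 34467710 behind each *Gata6STOP/+* pool. *Gata6* itself was measured at 315, 257 and 286 CPM in control replicates 3 to 5 and at 268, 203, 219 and 217 CPM in *Gata6STOP/+* replicates 1, 3, 4 and 5. The mutant mean was thus 79.2% of the control mean and the groups overlapped (limma adjusted *P*-value=0.389). The study itself reported *Gata6* as decreased, both by its own test of the sequencing data and by quantitative PCR. Limma on log2(CPM+0.5) gave 0 of 14732 genes (0%) with an adjusted *P*-value under 0.05 and 1187 with an unadjusted one. On the reads behind the values, the quasi-likelihood test of edgeR also called 0 genes, its likelihood ratio test 105 and DESeq2 88. All 6 markers of the OFT, *Sema3c*, *Isl1*, *Rspo3*, *Wnt11*, *Bmp4* and *Postn*, were present, with summed levels of 1127 to 1453 CPM in control and 1063 to 1384 CPM in *Gata6STOP/+* pools.

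Promoter sequence of the members is shown where it holds a GATA motif, because *Gata6* is the mutated gene, and for *Barx1*, a gene the choice rested on. RefSeq promoters on GRCm38.p6 (250 bases before to 50 after a start) were given for 5 members, *Barx1*, *Foxf2*, *Prrx1*, *Prrx2* and *Dlx2*. Only bases that precede every annotated start are printed. Capitals mark a GATA motif and, in *Prrx1*, the homeobox motif TAATTA that overlaps it. The stretches are chr13:48662786-48662997 (plus strand) for *Barx1*, chr1:163313711-163313900 (minus strand) for *Prrx1* and chr2:71546755-71547004 (minus strand) for *Dlx2*.
Barx1: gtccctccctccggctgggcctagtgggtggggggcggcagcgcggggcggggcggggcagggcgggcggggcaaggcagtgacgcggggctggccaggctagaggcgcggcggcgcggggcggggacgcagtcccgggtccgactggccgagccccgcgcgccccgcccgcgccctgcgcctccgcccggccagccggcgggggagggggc
Prrx1: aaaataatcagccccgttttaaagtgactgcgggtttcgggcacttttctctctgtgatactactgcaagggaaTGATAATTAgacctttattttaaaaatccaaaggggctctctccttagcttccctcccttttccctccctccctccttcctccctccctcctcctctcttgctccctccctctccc
Dlx2: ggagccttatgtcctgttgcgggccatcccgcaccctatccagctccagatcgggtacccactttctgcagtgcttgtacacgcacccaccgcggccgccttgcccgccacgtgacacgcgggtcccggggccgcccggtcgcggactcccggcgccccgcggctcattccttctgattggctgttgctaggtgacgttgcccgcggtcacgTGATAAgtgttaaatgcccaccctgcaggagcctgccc
The *Barx1* stretch consisted of 85.4% G and C, against 48.9% in *Prrx1* and 66.4% in *Dlx2*. The GATA motif was searched on both strands as AGATAA or AGATAG or TGATAA or TGATAG, and 29.8% of 32851 promoter windows of 300 bases held it. Among the 5 members, TGATAA stood 176 bases before the RefSeq start of *Prrx1* and 38 bases before that of *Dlx2*, and the windows of *Barx1*, *Foxf2* and *Prrx2* did not hold these letters. TAATTA, a homeobox motif found in 5.29% of all windows, was present in *Prrx1* alone. TAATCC, which bicoid-type homeodomains such as that of Pitx1 bind, occurred in 7.06% of all windows, and the forkhead motif TAAACA in 13.4%, but in none of these 5. These are matches of letters, and no binding was measured.

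*Barx1* (ENSMUSG00000021381, chromosome 13, 48662998 to 48666507, plus strand of GRCm38) was present in all 7 pools. Control replicates 3, 4 and 5 were at 4.70, 3.04 and 4.09 CPM, and *Gata6STOP/+* replicates 1, 3, 4 and 5 at 7.40, 10.1, 9.36 and 8.40 CPM. Every *Gata6STOP/+* pool lay above every control pool, which is what the members were chosen by. The group means were 3.94±0.841 CPM (s.d., *n*=3) and 8.83±1.19 CPM (s.d., *n*=4), a ratio of 2.24 and a log2 fold change of 1.08 (standard error 0.158) on the log2(CPM+0.5) scale. Between 73 and 289 reads stood behind each value. The lowest 95% Poisson bound of the *Gata6STOP/+* pools, 6.44 CPM in replicate 1, was above the highest of the control pools, 5.73 CPM in replicate 3, and *Barx1* was the 1 member of which this was true. Such bounds cover counting error only, and they are relatively wider for genes of fewer reads, such as *Pitx1* and *Foxf1*. The values are also those the choice was made on, so nothing is read from this.

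*Pitx1* (ENSMUSG00000021506, chromosome 13, 55825051 to 55836192, minus strand), which encodes a bicoid-related homeodomain factor, was a gene of few reads, between 17 and 100 per pool. Control replicates 3 to 5 gave 1.44, 0.863 and 0.952 CPM, and *Gata6STOP/+* replicates 1, 3, 4 and 5 gave 2.03, 2.72, 3.66 and 2.91 CPM. The lowest *Gata6STOP/+* pool stood close above the highest control pool, and their counting intervals, 1.54 to 2.63 CPM and 0.970 to 2.05 CPM, overlapped. The means were 1.08±0.310 CPM (s.d., *n*=3) and 2.83±0.669 CPM (s.d., *n*=4), a ratio of 2.61 and a log2 fold change of 1.07 (standard error 0.212).

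*Foxf1* (ENSMUSG00000042812, chromosome 8, 121084386 to 121088144, plus strand), a forkhead factor needed for lung and gut mesenchyme, had the lowest level per exon length of the members in control pools. Control replicates 3 to 5 were at 0.671, 0.621 and 0.784 CPM, from 14, 18 and 14 reads. *Gata6STOP/+* replicates 1, 3, 4 and 5 were at 2.98, 1.30, 2.93 and 1.69 CPM, from 85, 36, 72 and 58 reads. The control pools were alike, whereas the *Gata6STOP/+* pools parted into replicates 1 and 4 at the higher level and replicates 3 and 5 at the lower. The counting interval of replicate 1, 2.38 to 3.69 CPM, did not overlap that of replicate 3, 0.913 to 1.81 CPM. Group means of 0.692±0.0834 CPM (s.d., *n*=3) and 2.23±0.858 CPM (s.d., *n*=4) gave a ratio of 3.22 and a log2 fold change of 1.14 (standard error 0.256).

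A gene entered the table when 3 or more pools reached 1 CPM. *Foxf1* reached 1 CPM in 0 control and 4 *Gata6STOP/+* pools, and *Pitx1* in 1 control and 4 *Gata6STOP/+* pools, so neither would have been listed without the *Gata6STOP/+* pools. *Dlx5* reached it in 2 pools of each genotype, and *Barx1*, *Prrx1*, *Prrx2* and *Dlx2* in all 7. A difference was therefore built into the listing of *Foxf1* and *Pitx1*.

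**Figure D1:**
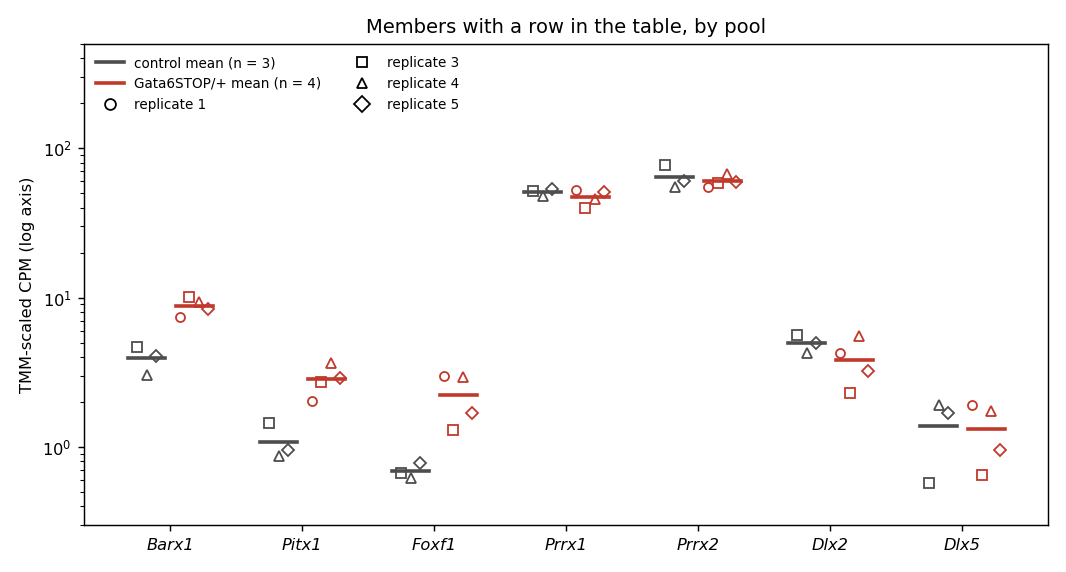
CPM of the 7 members with a row, on a log axis, in each control pool (grey, *n*=3) and each *Gata6STOP/+* pool (red, *n*=4), with symbols for the replicate number and bars for the group mean. For *Barx1*, *Pitx1* and *Foxf1*, the genes the choice rested on, all red symbols lie above all grey ones, and for the other 4 members the groups overlap.

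The paired-related genes showed no such separation. *Prrx1* (ENSMUSG00000026586, chromosome 1, 163245119 to 163313710, minus strand) was at 52.0, 47.9 and 53.2 CPM in control replicates 3 to 5 and at 52.5, 39.6, 46.0 and 50.9 CPM in *Gata6STOP/+* replicates 1, 3, 4 and 5. Only *Gata6STOP/+* replicates 3 and 4 lay outside the control range, below it, and the means of 51.0±2.81 CPM (s.d., *n*=3) and 47.3±5.78 CPM (s.d., *n*=4) differed by less than the spread of the *Gata6STOP/+* pools. The log2 fold change was -0.12 (standard error 0.0948).

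*Prrx2* (ENSMUSG00000039476, chromosome 2, 30834972 to 30881251, plus strand), its paralogue, was at 77.1, 55.0 and 60.2 CPM in the control pools and at 54.7, 58.6, 67.6 and 59.5 CPM in the *Gata6STOP/+* pools, in the same order of replicates. The highest value was that of control replicate 3, and the other 6 pools lay between 54.7 and 67.6 CPM. The log2 fold change of -0.08 (standard error 0.110) was 0.06 without control replicate 3, so its sign rested on that pool. With 950 to 1751 reads per pool for *Prrx1* and 1075 to 2048 for *Prrx2*, these are the members measured with the least counting error.

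The Dlx genes varied from pool to pool within *Gata6STOP/+*. *Dlx2* (ENSMUSG00000023391, chromosome 2, 71543408 to 71546754, minus strand), which acts in the arches and the forebrain, was at 5.61, 4.28 and 4.98 CPM in control replicates 3 to 5. In *Gata6STOP/+* replicates 1, 3, 4 and 5 it was at 4.28, 2.28, 5.53 and 3.23 CPM. Replicates 3 and 5 of *Gata6STOP/+* were below the control range and replicates 1 and 4 within it. The log2 fold change was -0.38 (standard error 0.234), and -0.19 without *Gata6STOP/+* replicate 3 and -0.56 without replicate 4.

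*Dlx5* (ENSMUSG00000029755, chromosome 6, 6877805 to 6882085, minus strand), a factor of the lower part of the arches, was at 0.575, 1.90 and 1.68 CPM in control replicates 3 to 5 and at 1.89, 0.652, 1.75 and 0.959 CPM in *Gata6STOP/+* replicates 1, 3, 4 and 5. Each genotype held pools near 0.6 CPM and pools near 1.9 CPM, and the means, 1.38±0.709 CPM (s.d., *n*=3) and 1.31±0.603 CPM (s.d., *n*=4), were close. Between 12 and 55 reads stood behind a value. The log2 fold change of -0.04 (standard error 0.337) became -0.40 when control replicate 3 was left out and 0.18 when replicate 4 was, and it therefore gives no direction.

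Placed by overlap, 3 of the 7 members had every *Gata6STOP/+* pool above every control pool, 0 had every one below, and 4 overlapped. Over all 14732 genes, 4.31% were above and 4.16% below in this sense. The 3 are the genes that the choice was made on, so nothing is read from their number. In bulk tissue, more cells of a kind and more RNA per cell cannot be told apart, and this holds for each value above.

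Levels of different genes were compared as CPM per kilobase of exon. The length is that of all annotated exons of a gene together, not of the transcripts expressed, so the order depends on the annotation. In control pools, *Prrx2* was the most abundant member, at 32.7±5.88 CPM per kb (s.d., *n*=3), and 89.9% of the genes of the table were lower. It was followed by *Prrx1* at 4.61±0.254, *Barx1* at 2.82±0.601, *Dlx2* at 1.74±0.233, *Dlx5* at 0.612±0.313, *Pitx1* at 0.408±0.117 and *Foxf1* at 0.287±0.0345 CPM per kb. The median gene was at 5.61 CPM per kb, so that *Prrx2* alone stood above it. Neighbours in this order did not overlap between control pools, except *Dlx5* and *Pitx1*. The paralogues *Prrx1* and *Prrx2*, similar in CPM, were thus far apart per exon length, since the annotated exons of *Prrx1* cover 11066 bases and those of *Prrx2* 1961. In *Gata6STOP/+* pools the order was *Prrx2* (30.7), *Barx1* (6.31), *Prrx1* (4.27), *Dlx2* (1.34), *Pitx1* (1.07), *Foxf1* (0.921) and *Dlx5* (0.581 CPM per kb). *Foxf1* and *Pitx1* were below the median gene of the control pools in both genotypes.

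**Figure D2:**
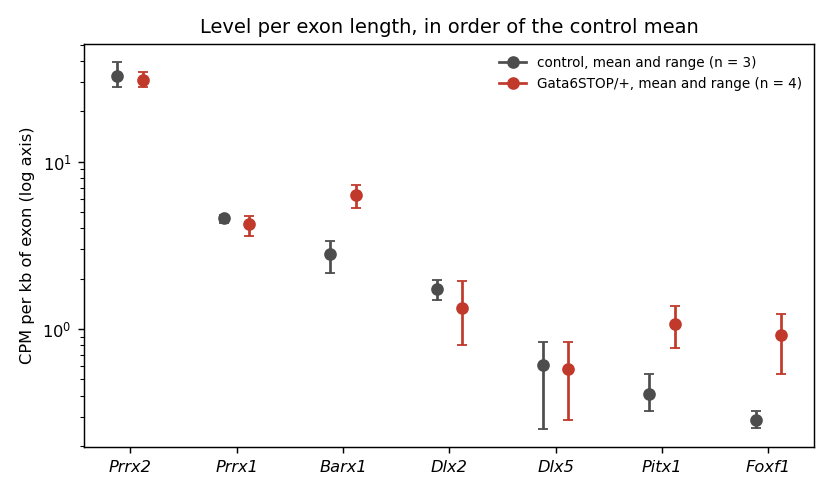
CPM per kb of exon on a log axis for the 7 members, in order of the control mean, with points for the mean and bars for the range of the control (grey, *n*=3) and *Gata6STOP/+* pools (red, *n*=4). *Prrx2* at 32.7 and 30.7 CPM per kb stands above the others in both groups, and *Barx1* at 2.82 and 6.31 CPM per kb changes places with *Prrx1*.

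The members did not vary as a single group from pool to pool. After each value was set against the mean of its own genotype on the log2(CPM+0.5) scale, correlations between members over the 7 pools ran from -0.73 to 0.92 among 21 pairs. They describe 7 points that share libraries and depth and carry no test. *Foxf1* and *Dlx2* deviated together (*r*=0.91, *n*=7 pools), as did *Foxf1* and *Dlx5* (*r*=0.70). All 3 genes were above their group mean in *Gata6STOP/+* replicates 1 and 4 and below it in replicates 3 and 5, with deviations of -0.54 for *Foxf1*, -0.58 for *Dlx2* and -0.59 for *Dlx5* in replicate 3.

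*Barx1* and *Pitx1* followed another pattern. Their deviations went together with each other (*r*=0.73, *n*=7 pools) and with those of *Prrx2* (*r*=0.78 for *Barx1* and 0.92 for *Pitx1*), and hardly with those of *Foxf1* (-0.29 and -0.04). *Gata6STOP/+* replicate 1 was the lowest of its group for *Barx1* and *Pitx1* and the highest for *Foxf1*. The 3 genes on which the choice was made were therefore not highest in the same pools. *Gata6STOP/+* replicate 1 also had the lowest summed level of 8 cardiomyocyte markers, 16015 CPM where the other 6 pools were at 20162 to 23391 CPM, and the part of this in the values of the members was not tested.

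**Figure D3:**
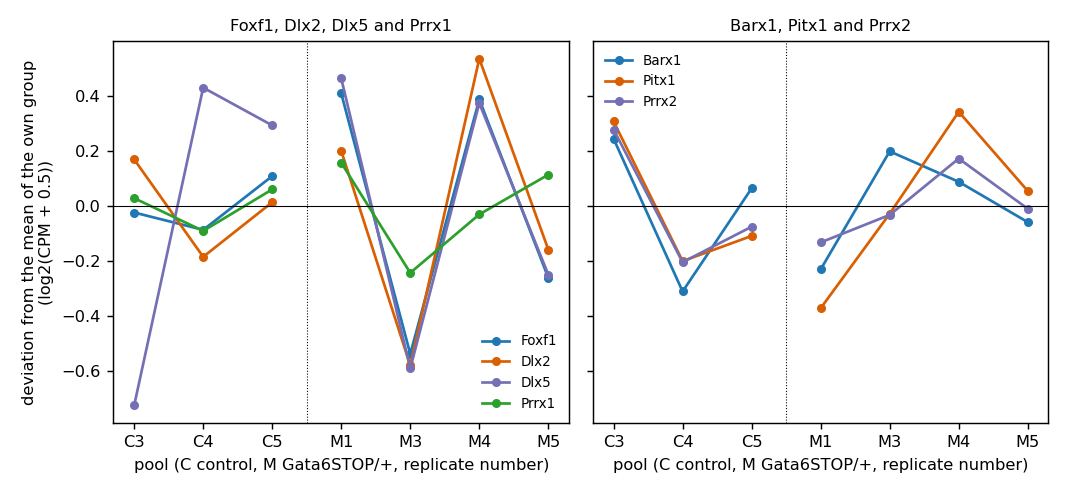
Deviation of each pool from the mean of its own genotype, in log2(CPM+0.5) units, for *Foxf1*, *Dlx2*, *Dlx5* and *Prrx1* (left) and for *Barx1*, *Pitx1* and *Prrx2* (right), with C for control and M for *Gata6STOP/+* pools. Replicates 1 and 4 of *Gata6STOP/+* lie above 0 and replicates 3 and 5 below for *Foxf1*, *Dlx2* and *Dlx5*, and the genes on the right do not share this course.

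The genes most like a member over the 7 pools were taken by Pearson's *r* of log2(CPM+0.5) among the 13224 genes that averaged 2 CPM or more, the difference between genotypes included. For *Barx1* they were *Insyn2b* (*r*=0.990), *Col8a1*, *Cacna1d*, *Palmd* and *Akap5* (*r*=0.978). *Col8a1*, which encodes a chain of type VIII collagen, averaged 7.31±1.02 CPM in control pools (s.d., *n*=3) and 12.2±1.23 CPM in *Gata6STOP/+* pools (s.d., *n*=4). For *Pitx1* they included *Msn* (*r*=0.979), *Trim71*, *Zfp280b* and *Tet1* (*r*=0.971), and for *Foxf1* they were *Tmod2* (*r*=0.989), *Ass1*, *Rprm*, *Gm10177* and *Dzip1l* (*r*=0.965). None of these genes was named for more than 1 of the 3 members. *Rprm*, which encodes a p53-induced inhibitor of the cell cycle, showed the split of *Foxf1*, as its rank by correlation with *Foxf1* implies. It was at 5.19 and 5.41 CPM in *Gata6STOP/+* replicates 1 and 4 and at 3.37 and 3.66 CPM in replicates 3 and 5. Since every gene was ranked on the same 7 pools, values this high are picked from many.

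Other homeobox factors of arch and mesenchyme were read from a list of 27 genes, of which 19 were in the table. By limma 0 of the 19 passed the threshold, 15 had a positive and 4 a negative log2 fold change, and their median was 0.16 where that of all genes was -0.00073. In 5 of them every *Gata6STOP/+* pool was above every control pool, where 4.31% of all genes were. However, *Barx2* and *Nkx3-2* among them reached 1 CPM in 0 control pools and were listed through the *Gata6STOP/+* pools alone, as *Foxf1* was. The list was also written with earlier results of these data known, so nothing is read from this count, the signs or the median. *Barx2*, the paralogue of *Barx1*, was at 0.487 CPM on average in control and 1.18 CPM in *Gata6STOP/+* pools (log2 fold change 0.79, standard error 0.241). *Nkx3-2*, a factor of foregut mesenchyme and cartilage, was at 0.403 and 1.18 CPM (0.89, standard error 0.220). It was the 1 gene of the list that the likelihood ratio test of edgeR called, with an adjusted *P*-value of 0.0119, where that test called 0.713% of all genes. It was at 0.244 by the quasi-likelihood test and 0.102 by DESeq2. Because *Nkx3-2* was listed through the *Gata6STOP/+* pools alone, nothing is read from this call. *Meis1*, which encodes a cofactor of Hox proteins, and *Six4* differed less, by 0.12 and 0.22 on the log2 scale. These 4 were named after their values were seen, and their limma adjusted *P*-values lay between 0.276 and 0.598.

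By the rule for naming genes, *Gsc* had the highest and *Alx4* and *Shox2* the lowest log2 fold changes of the homeobox list among genes of at least 1 CPM. *Gsc*, goosecoid, a target of Dlx factors in the lower jaw, was at 0.384, 0.828 and 0.784 CPM in control replicates 3 to 5 and at 1.89, 0.797, 2.24 and 1.86 CPM in *Gata6STOP/+* replicates 1, 3, 4 and 5 (limma adjusted *P*-value=0.435), and it too reached 1 CPM in 0 control pools. It overlapped between genotypes because of *Gata6STOP/+* replicate 3, the pool of its group in which *Foxf1*, *Dlx2* and *Dlx5* were also lowest. *Alx4* rested on control replicate 4, at 7.97 CPM where the other 6 pools were at 0.863 to 1.67 CPM, and *Shox2* was near 1.4 CPM in both groups.

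Of 11 other forkhead factors of mesenchyme, 8 were in the table, 0 passed the threshold, 6 were positive and 2 negative, and the median log2 fold change was 0.08. None of the 8 separated the genotypes. *Foxs1* (0.67, standard error 0.293) and *Foxd1* (0.27, standard error 0.321) had the highest values, both from few reads and *Foxs1* with 0 control pools at 1 CPM, and *Foxc2* (-0.31, standard error 0.127) and *Foxp4* (-0.17, standard error 0.106) the lowest. *Foxc1* and *Foxc2*, which act in the mesenchyme of the OFT and arch arteries, were at 58.9±3.27 and 60.2±5.69 CPM in control (s.d., *n*=3) and at 60.6±10.8 and 49.0±8.76 CPM in *Gata6STOP/+* pools (s.d., *n*=4).

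The Hedgehog pathway, under which Foxf factors act in the foregut, was represented by 10 of 12 listed genes, and the ligands *Shh* and *Ihh* were not analysed here. By limma 0 of 10 passed, 8 were positive and 2 negative, with a median of 0.08. *Hhip*, which encodes a secreted antagonist and is a Hedgehog target, was at 0.240, 0.932 and 0.896 CPM in control replicates 3 to 5 and at 3.54, 1.67, 1.10 and 1.48 CPM in *Gata6STOP/+* replicates 1, 3, 4 and 5 (log2 fold change 1.01, standard error 0.339, limma adjusted *P*-value=0.466). It also was listed through the *Gata6STOP/+* pools alone, since 0 control pools reached 1 CPM. *Gli1*, another target, was at 5.01±2.43 and 7.39±1.23 CPM and overlapped, with control replicate 4 at 7.80 CPM. *Gli3*, a transcriptional effector, was at 79.3±4.96 and 79.0±11.2 CPM (s.d., *n*=3 and 4).

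**Figure D4:**
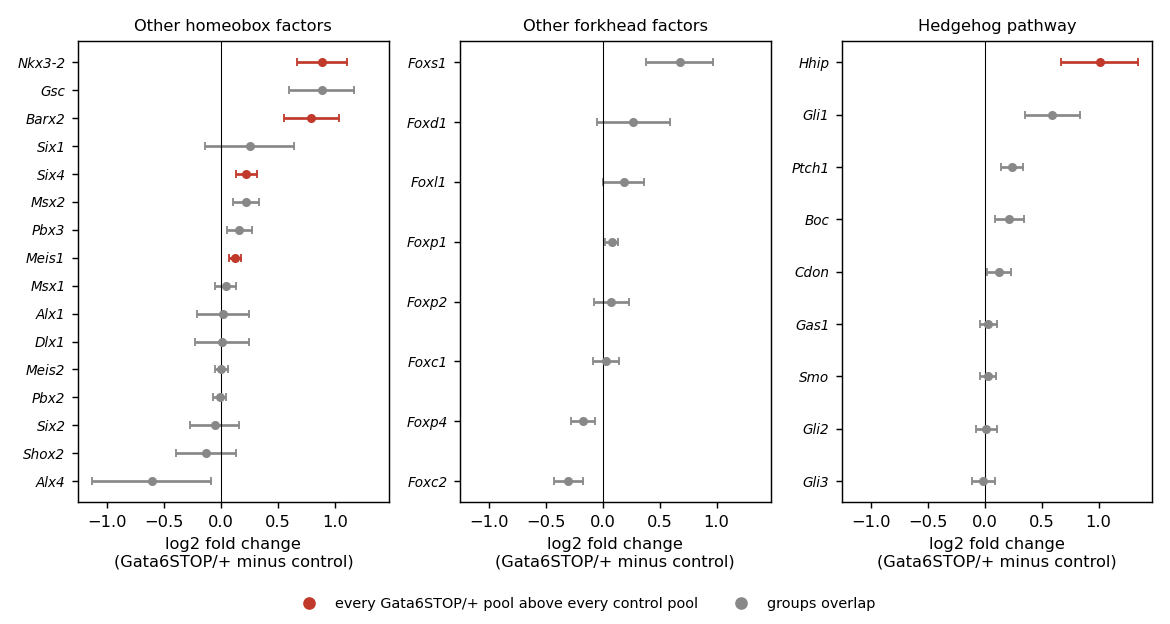
Log2 fold change of CPM+0.5 (*Gata6STOP/+* minus control) with its limma standard error for the listed homeobox (left, 16 genes shown), forkhead (middle, 8 genes) and Hedgehog pathway genes (right, 9 genes shown). Red points mark genes whose *Gata6STOP/+* pools all lie above the control pools, 4 on the left, 0 in the middle and 1 on the right, and grey points mark overlap.

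The axis from endothelin to the Dlx genes was present with all 10 of its listed genes, of which 5 were positive and 5 negative with a median of 0.01. The ligand gene *Edn1* and its receptor gene *Ednra* belong to this list, and neither separated the genotypes. *Hand1*, a factor of the lower arch and the heart, was at 74.1, 57.6 and 58.0 CPM in control replicates 3 to 5 and at 89.5, 79.8, 88.6 and 76.8 CPM in *Gata6STOP/+* replicates 1, 3, 4 and 5 (log2 fold change 0.41, standard error 0.0955, adjusted *P*-value=0.246). *Nr2f1* (0.38) was the other gene named for a high value, and *Gna11* (-0.10) and *Nr2f2* (-0.14) were those named for a low one. By limma 0 of the 10 passed the threshold. The likelihood ratio test, which called 0.713% of all genes, called *Hand1* alone (adjusted *P*-value=0.0239). So did DESeq2 (0.0215), which called 88 of all 14732 genes, whereas the quasi-likelihood test gave 0.271.

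Of 9 genes known to act downstream of a member, 8 were in the table, 5 positive and 3 negative with a median of 0.07, and 0 passed by limma. *Sfrp1* and *Sfrp2* encode secreted Wnt antagonists that *Barx1* is known to maintain in stomach mesenchyme. *Sfrp2* was at 102, 99.8 and 136 CPM in control replicates 3 to 5 and at 89.9, 42.4, 55.7 and 68.9 CPM in *Gata6STOP/+* replicates 1, 3, 4 and 5. Each *Gata6STOP/+* pool lay below each control pool, with a log2 fold change of -0.84 (standard error 0.207, adjusted *P*-value=0.276), and the lowest of them was replicate 3, in which *Barx1* was highest. In *Gata6STOP/+* pools the order by *Sfrp2* was the reverse of that by *Barx1*. In control pools it was not, since replicate 4 was lowest for both, at 99.8 CPM for *Sfrp2* and 3.04 CPM for *Barx1*. The relation between these genes was not tested. The likelihood ratio test, which called 0.713% of all genes, called *Sfrp2* (adjusted *P*-value=0.0239) and no other gene of this list. The quasi-likelihood test (0.315) and DESeq2 (0.294) did not call it. *Sfrp1* was at 300.0±32.4 and 258±15.0 CPM (log2 fold change -0.21, standard error 0.0786), and *Wnt2*, a ligand of lung mesenchyme, at 4.17±0.954 and 5.73±1.13 CPM (s.d., *n*=3 and 4). Over the 5 lists together, 53 different genes were in the table, of which 7 lay above and 1 below, with limma adjusted *P*-values from 0.246 to 0.995. Since 3 of the 7 (*Barx2*, *Nkx3-2* and *Hhip*) had 0 control pools at 1 CPM, the listing favoured this direction, and the 7 are not compared with other genes.

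Markers of other cells were set beside the members. Of 6 markers of foregut and lung mesenchyme, *Tbx4*, *Wnt2*, *Wnt2b* and *Nkx3-2* were in the table, and *Nkx6-1* and *Nkx2-3* were not analysed here. Their summed level was 13.8 to 15.7 CPM in control and 17.9 to 22.6 CPM in *Gata6STOP/+* pools, without overlap. The largest part came from *Wnt2b*, with means of 7.65 CPM in control and 10.5 CPM in *Gata6STOP/+* pools. Taken singly, *Wnt2b* and *Nkx3-2* separated the genotypes, the latter listed through the *Gata6STOP/+* pools alone. *Wnt2* and *Tbx4* overlapped, and *Tbx4* went the other way, with a log2 fold change of -0.11. Within *Gata6STOP/+*, however, the sums were lower in replicates 1 and 4 (18.0 and 17.9 CPM) than in replicates 3 and 5 (20.5 and 22.6 CPM), the reverse of *Foxf1*. Of 17 markers of pharyngeal and foregut epithelium 4 could be read, *Krt8*, *Krt18*, *Krt19* and *Sox2*, and the defining genes *Epcam*, *Cdh1*, *Foxa2*, *Shh* and *Nkx2-1* were among the 13 not analysed here. The sums of the 4 overlapped, at 112 to 182 and 130 to 180 CPM.

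Of 6 markers of neural crest and glia, 5 were in the table, and *Foxd3* was not analysed here. Their summed level was 83.6 to 118 CPM in control and 70.2 to 82.3 CPM in *Gata6STOP/+* pools, without overlap, most of it from *Erbb3*. Taken singly, all 5 overlapped between genotypes. Of the markers of branchiomeric muscle, *Tcf21* was at 39.5±3.81 CPM in control (s.d., *n*=3) and 39.9±5.35 CPM in *Gata6STOP/+* pools (s.d., *n*=4), and *Myf5*, *Myod1*, *Myog*, *Msc* and *Lhx2* were not analysed here. Sums of markers of cardiomyocytes, smooth muscle, endothelium, cartilage, neurons, epicardium and erythroid cells also overlapped, and by limma 0 genes of any list passed the threshold. *Nkx3-2*, which the likelihood ratio test called but which was listed through the *Gata6STOP/+* pools alone, is also in the foregut mesenchyme list. The part of foregut mesenchyme and of neural crest in the values of *Barx1*, *Pitx1* and *Foxf1* was not tested.

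Genes next to the members were examined because the rule did not use them. Within 200 kb of a member's start lay 25 other genes of the table, of which 0 passed by limma and 2 had an unadjusted *P*-value under 0.05. Their log2 fold changes were between -0.31 and 0.30 with a median of -0.0077, 11 positive and 14 negative, and their adjusted *P*-values lay between 0.577 and 0.998. Of the 25, 2 were above and 0 below without overlap, against 4.31% and 4.16% of all genes. The differences of *Barx1*, *Pitx1* and *Foxf1* were 1.07 to 1.14, but these genes were chosen for being higher. That the neighbours differed less is therefore not read as a result.

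*Foxf1* lies in a forkhead cluster. *Mthfsd* (-0.03), *Foxc2* (-0.31) and *Foxl1* (0.18) start 24.0, 31.8 and 43.6 kb from it, and each overlapped between genotypes. *Foxl1*, like *Foxf1* a factor of gut mesenchyme, was at 2.32±0.280 CPM in control (s.d., *n*=3) and 2.72±0.565 CPM in *Gata6STOP/+* pools (s.d., *n*=4). Beside *Barx1*, *Ptpdc1* had a log2 fold change of 0.09, *6720427I07Rik* of 0.16 and *Zfp169* of -0.01. Beside *Pitx1*, *Pcbd2* was at -0.02, *Txndc15* at -0.01 and *B230219D22Rik* at 0.11, the last with every *Gata6STOP/+* pool above every control pool.

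*Dlx1*, which forms a pair with *Dlx2* and starts 18.6 kb from it, was at 2.04±0.538 CPM in control (s.d., *n*=3) and 2.07±0.631 CPM in *Gata6STOP/+* pools (s.d., *n*=4), a log2 fold change of 0.01 where that of *Dlx2* was -0.38. The further neighbours of *Dlx2* were *Metap1d* (-0.01), *Hat1* (0.05), *Slc25a12* (-0.09) and *Itga6* (-0.07). *Sdhaf3* (-0.21), which lies near both *Dlx5* and *Dlx6*, and *Gorab* (0.02), near *Prrx1*, overlapped between genotypes. Near *Prrx2* there were 8 genes, *Asb6* (0.05), *Ntmt1* (0.02), *1700001O22Rik* (-0.00), *Ptges* (0.30), *Tor1b* (-0.01), *Tor1a* (-0.02), *BC005624* (-0.03) and *Usp20* (-0.11). *Ptges*, which encodes a prostaglandin E synthase, was above in every *Gata6STOP/+* pool (standard error 0.136, adjusted *P*-value=0.608). *Foxc1* (0.03) starts 181 kb from *Foxf2*.

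**Figure D5:**
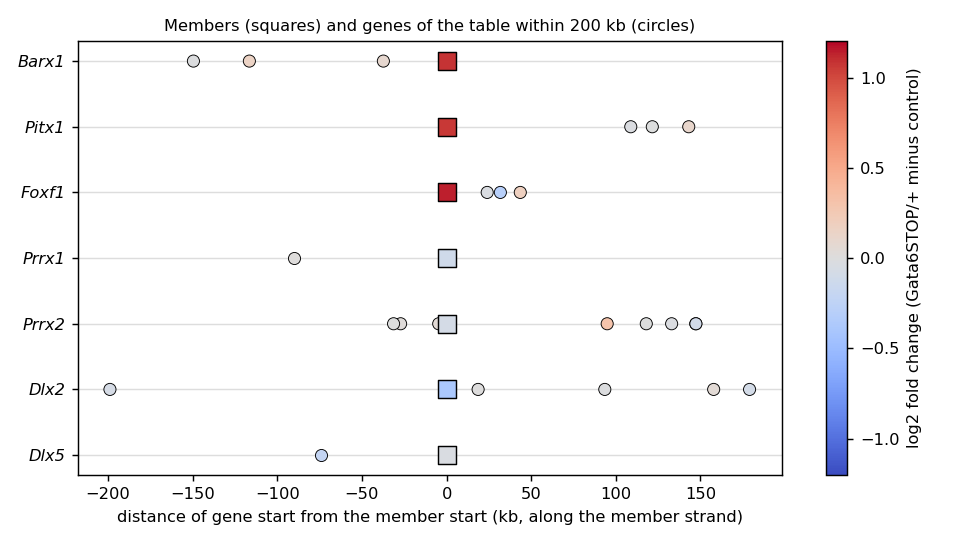
Log2 fold change (*Gata6STOP/+* minus control) by colour for the 7 members (squares at 0 kb) and the genes of the table that start within 200 kb (circles), against the distance of their start from that of the member along its strand. *Barx1*, *Pitx1* and *Foxf1*, the genes the choice rested on, are at 1.07 to 1.14, and their neighbours lie between -0.31 and 0.18.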

How the data were processed

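The members and the gene lists were chosen with earlier results of these data known. The authors aligned and quantified 60-base single-end reads of stranded polyA libraries with RSEM on GRCm38 and Ensembl gene models, retained genes that reached 1 CPM in 3 or more samples, and deposited TMM-scaled CPM values for 7 pools in 1 table. Whether counting used the strand is not given in the sources used here, so reads of overlapping genes on opposite strands cannot be told apart. Each pool's CPM values were divided by what 1 read is worth, and 100% came out whole within 0.01 reads, which gave the reads per gene. Pools were grouped by their labels. Genes were tested with limma 3.58.1 in R 4.3.3 (lmFit and eBayes with a trend, two-sided, Benjamini-Hochberg adjustment over all 14732 genes, threshold 0.05) on log2(CPM + 0.5), a scale that understates differences of low genes. Alternatives were edgeR 4.0.16 and DESeq2 1.42.0 on the reads, other added constants, scalings and filters, the replicate number as a block, and leaving out each pool. The fits were tested on simulated data. No pools were duplicates, since mean chi-square per gene between pools of a genotype was 10.9 to 32.3. Positions and exon lengths came from GENCODE M21.

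The genes named are all members, from each pathway list the 2 highest and 2 lowest log2 fold changes at a mean of at least 1 CPM, all genes of the table within 200 kb of a member start, the 5 genes most correlated with *Barx1*, *Pitx1* and *Foxf1*, and *Gata6*. Some genes that this rule takes are not reported here. Genes outside it are said to be so or illustrate a list.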

Additional observations from a re-analysis of the deposited data

Results flagged for a closer look

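Among the *Gata6STOP/+* pools, the highest or lowest pool of each named member, neighbour and list value was compared with the other 3, and 3 of 49 values had 1 pool far from the others by Dixon's criterion, which chance gives in about 1 of 20 groups. They were *Mthfsd*, beside *Foxf1*, at 32.0 CPM in replicate 4 and 28.0 to 28.4 CPM in the others, *Metap1d*, near *Dlx2*, at 27.2 CPM in replicate 1 and 23.1 to 23.8 CPM in the others, and *Zfp169*, near *Barx1*, at 4.24 CPM in replicate 3 and 4.92 to 4.97 CPM in the others. Each is a neighbour of a member, and 0 of the 7 members met the criterion.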

How the results depend on the processing

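The count of genes called by limma, 0, became 1 with 0.1 added before the logarithm and 0 to 13 when 1 pool was left out, the most without control replicate 4, with 2 when *Gata6STOP/+* replicate 3 was left out and 1 without *Gata6STOP/+* replicate 1. DESeq2 called 88 genes and the likelihood ratio test of edgeR 105. With the replicate number as a block, limma called 14 and the likelihood ratio test 118, but the numbers were not taken to pair the pools, since deviations of same-numbered pools correlated at -0.01, -0.12 and -0.00 and *Gata6STOP/+* replicate 1 has no partner. With 95% Poisson bounds in place of values, an alternative chosen after seeing the data, 1 of the 3 members stayed above. The log2 fold change of *Pitx1* ranged from 0.64 (2 added) to 1.53 (likelihood ratio test with the replicate block). That of *Foxf1* ranged from 0.63 (2 added) to 1.69 (DESeq2) and that of *Barx1* from 0.87 to 1.26, all positive. A filter at a mean of 5 CPM excludes *Pitx1*, *Foxf1*, *Dlx2* and *Dlx5*. The causes were not tested. Depth limits *Foxf1*, *Pitx1* and *Dlx5*, which had 12 to 100 reads per pool.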
